A study of Drosophila melanogaster with 24 samples.

Results

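The 9 genes described here were grouped as genes of the fly's storage carbohydrate, glycogen, and its blood sugar, trehalose, and were measured in the fat body. For tobi the sources used here give no substrate, so its place in the group rests on the grouping alone. They were chosen by name and all 9 have a row among the 13234 genes of the authors' deposited table. The rule used no measured value, but the names were chosen with earlier results of these data known. They are UGP, GlyS and AGBE, which build glycogen, GlyP, which degrades it, Tps1, which makes trehalose, Treh, which cleaves it, the trehalose transporter gene Tret1-1 with its neighbouring paralogue Tret1-2, and the alpha-glucosidase gene tobi.

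The fat body is the insect counterpart of liver and adipose tissue. Glucose enters its reserves as UDP-glucose, which glycogen synthase adds to growing glycogen chains and which trehalose-6-phosphate synthase also uses to make trehalose. Trehalose leaves the cell through facilitated transporters, circulates in the hemolymph and is cleaved to glucose by trehalase in the tissues that consume it. In many insects glycogen and trehalose serve as fuel and as protectants in the cold and during dormancy.

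Messenger RNA was measured in fat body dissected from virgin w1118 Drosophila melanogaster females in 24 libraries, 6 in each of 4 groups. The groups were 11 °C with ethanol, 11 °C with S-methoprene, 25 °C with ethanol and 25 °C with S-methoprene, a juvenile hormone analogue. All flies had been reared at 25 °C, stayed in their condition for 25 days from shortly after eclosion, and received 10 µL of their solution as vapour every 2 days. The question behind the groups is what adult diapause, a reproductive arrest in the cold, does to gene expression and how far the hormone acts on it. Each library pooled 25 flies. Flies were used only where the ovary had the form their condition called for, so ovary state was part of the selection. Nothing in the labels says whether the pools of a group were set up independently, so the p-values measure the spread between these libraries.

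The authors' deposited table holds a single comparison and no value per library, so neither the level of a gene in each group nor its spread among 6 libraries can be shown, and library depth is unknown. Neither the factor compared nor the sign of the fold changes is named there. Genes are therefore given as on the positive or on the negative side, by the sign of the deposited fold change. It is not known which temperature or treatment either side stands for. Nor is it known which of the 24 libraries entered the comparison, or whether it set groups against each other directly. For each gene the deposited table has a mean normalised count over libraries, a log2 fold change with its standard error (SE), and an adjusted p-value. A gene was called where that adjusted p, from DESeq2's Wald test, was under 0.05. The 95% intervals were computed from the deposited fold change and SE with a normal approximation.

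The authors' deposited table gave 7 positive calls and 0 negative calls among the 9 genes. Over all 11399 tested genes, those with an adjusted p-value, positive calls made up 27.0% and negative calls 22.0%. The 9 genes had a median log2 fold change of 1.03, and all tested genes one of 0.07. Glycogen genes of synthesis and breakdown, the trehalase gene, Tret1-2 and tobi were on the positive side. Tps1 and Tret1-1 were not called. Fold changes ran from 1.07-fold for Tret1-1 to 8.13-fold for tobi. The samples are bulk tissue, in which fewer cells of a type and less RNA per cell cannot be told apart.

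**Figure D1:**
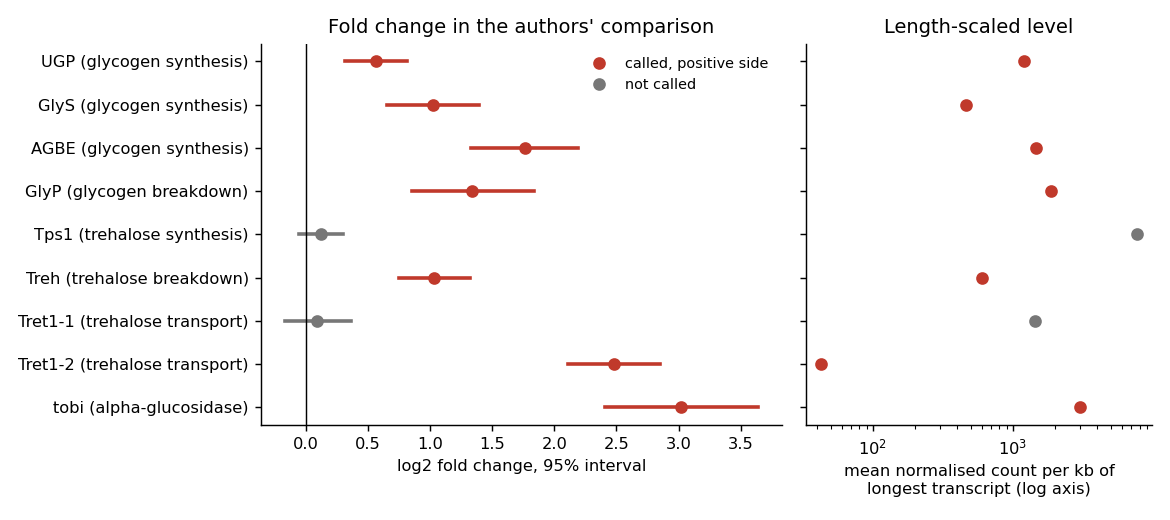
The left panel shows the log2 fold change of each of the 9 genes in the authors' deposited comparison with its 95% interval, and the right panel the mean normalised count per kb of the longest annotated transcript on a log axis. The intervals of Tps1 and Tret1-1 include 0 while those of the other 7 genes lie above it, and Tps1 has the highest length-scaled level and Tret1-2 the lowest.

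Most of these genes were abundant transcripts. The mean normalised count in the authors' deposited table was at least 1000 for 8 of the 9, a range that held 846 tested genes. Scaled by the longest annotated transcript, the mean was 7633 per kb for Tps1, 3014 for tobi, 1862 for GlyP, 1462 for AGBE, 1435 for Tret1-1, 1195 for UGP, 603 for Treh, 464 for GlyS and 42.8 for Tret1-2. Only 9 of the tested genes had a higher unscaled mean than Tps1. The order of these levels has no error attached, because the deposited means carry none, and neighbours in it such as AGBE and Tret1-1 cannot be told apart.

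Abundant genes as a class leaned the other way. Among the 846 tested genes with a mean of at least 1000, positive calls made up 23.0% and negative calls 42.0%, and the median log2 fold change was -0.15. Of the 8 storage sugar genes in this range, 6 were called on the positive side, with a median of 1.03.

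**Figure D2:**
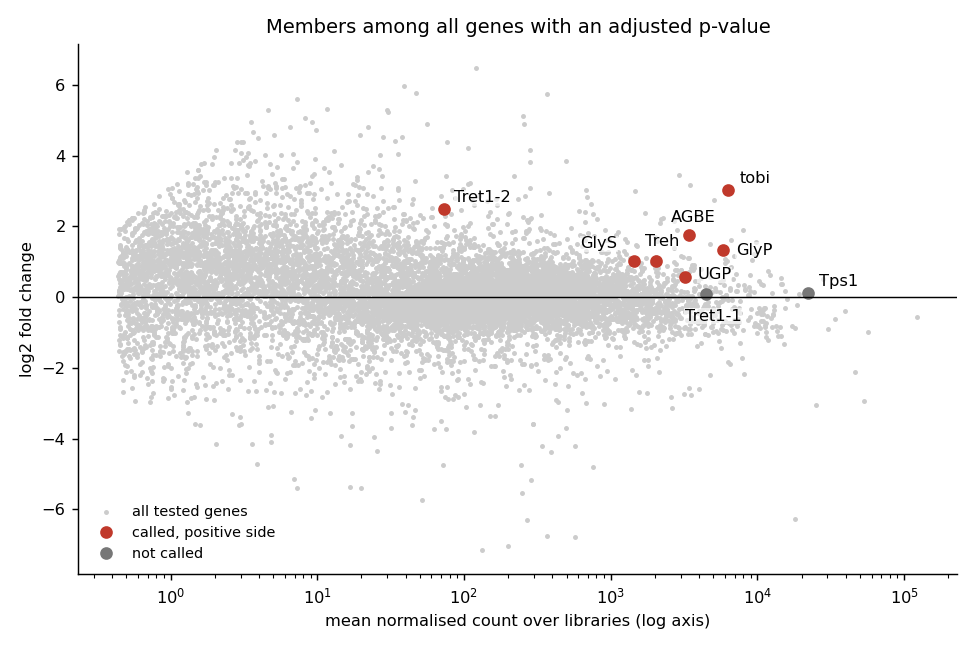
Each grey point is a tested gene of the authors' deposited table, placed by its mean normalised count (log axis) and its log2 fold change, and the 9 genes are marked in red where called and in dark grey where not called. At means above 1000, tobi stands near the upper edge of the cloud at 3.02, while Tps1 and Tret1-1 lie close to 0.

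The 3 chosen genes on the route from sugar phosphate to branched glycogen were all called on the positive side. UGP encodes UDP-glucose pyrophosphorylase, which makes the activated glucose. Its log2 fold change in the authors' deposited table was 0.56 (SE 0.13, adjusted p = 7.32e-05), a 1.47-fold difference with a 95% interval of 1.24 to 1.76. GlyS encodes glycogen synthase, which lengthens the chains. It stood at 1.02 (SE 0.19, adjusted p = 4.26e-07) in the deposited table, or 2.03-fold with an interval of 1.57 to 2.62. AGBE encodes the branching enzyme, which sets the branch points. It had the highest fold change of the 3 in the deposited table, 1.76 on the log2 scale (SE 0.22, adjusted p = 1.64e-14), or 3.39-fold with an interval of 2.52 to 4.55.

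Among these chosen genes the point estimates rose from UGP through GlyS to AGBE. The order leaves out Gyg, which encodes glycogenin, the protein primer of new glycogen particles. Gyg stood at 1.27 (SE 0.14) in the authors' deposited table, numerically above GlyS at 1.02. A rise along the whole route to glycogen was therefore not shown. The deposited table does not give the covariance of 2 genes measured in the same libraries, so each difference was given the largest SE that any correlation allows, the sum of the SEs of both genes. AGBE exceeded UGP by 1.20 on the log2 scale, with a 95% interval of 0.52 to 1.88. The step from UGP to GlyS was 0.46, with an interval of -0.16 to 1.08, and the step from GlyS to AGBE 0.74, with an interval of -0.06 to 1.53. Only the difference between the ends of the series was therefore resolved. In all 8 pairs were set side by side in this way, chosen after their values were seen, and 4 of these intervals left out 0.

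The gene for glycogen breakdown was also on the positive side. GlyP encodes glycogen phosphorylase, which releases glucose-1-phosphate from the chain ends. Its log2 fold change in the authors' deposited table was 1.34 (SE 0.25, adjusted p = 6.85e-07), or 2.54-fold with a 95% interval of 1.80 to 3.57. The fold change of GlyP exceeded that of GlyS by 0.32, with an interval of -0.54 to 1.19, and fell short of that of AGBE (difference -0.41, interval -1.33 to 0.51). These data thus give no resolved order between the gene for glycogen breakdown and either gene for chain building. The SE of GlyP was wide for its abundance, larger than or equal to that of 90.4% of the tested genes with a mean of at least 1000, and those of AGBE and GlyS stood at the 86.9 and 82.0 percentiles.

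Within the trehalose genes, Tps1 and Treh differed. The contrast is between these genes only and does not cover trehalose synthesis as a whole. Tps1 encodes trehalose-6-phosphate synthase. Its log2 fold change in the authors' deposited table was 0.12 (SE 0.09, adjusted p = 0.261), and its 95% interval ran from 0.962-fold to 1.23-fold. The SE of Tps1 was among the smaller ones of the abundant genes, at the 13.1 percentile of genes with a mean of at least 1000, so a change beyond 1.23-fold lies outside its interval. Treh encodes trehalase, which splits trehalose to glucose. It stood at 1.03 (SE 0.14, adjusted p = 1.67e-11) in the deposited table, or 2.05-fold with an interval of 1.68 to 2.49. The fold change of Treh exceeded that of Tps1 by 0.91 on the log2 scale, with an interval of 0.45 to 1.37 at the largest SE possible.

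The paired transporter genes went apart. Tret1-1 encodes a facilitated trehalose transporter. On the log2 scale its fold change was 0.09 (SE 0.14, adjusted p = 0.591) in the authors' deposited table, with a 95% interval of 0.887-fold to 1.28-fold. Tret1-2, the adjacent paralogue, had 2.48 there (SE 0.19, adjusted p = 2.36e-37), or 5.59-fold with an interval of 4.33 to 7.21. Only 33 tested genes had a smaller adjusted p-value than Tret1-2. The log2 difference between the paralogues was 2.39, with an interval of 1.76 to 3.02 at the largest SE possible.

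Tret1-2 was the rare member of the pair. Its mean normalised count in the authors' deposited table was 72.6, against 4494 for Tret1-1, so that it made up 1.59% of the counts of the pair. Per kb of transcript the level of Tret1-1 was 33.5 times that of Tret1-2. In the release 6 annotation Tret1-1 (FBgn0050035) lies on chromosome arm 2R from 11665768 to 11674782 and Tret1-2 (FBgn0033644) from 11675935 to 11678014, both on the plus strand, with 1152 bp between them. The sources used here do not give how reads shared by similar genes, or running past the end of Tret1-1, were counted.

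The gene tobi showed the largest fold change of the 9. It encodes an alpha-glucosidase and is known as a target of brain insulin, and its transcript level in flies responds to insulin and to adipokinetic hormone, the insect counterpart of glucagon. Its log2 fold change in the authors' deposited table was 3.02 (SE 0.31, adjusted p = 3.07e-20), or 8.13-fold with a 95% interval of 5.31 to 12.4. Among the 846 tested genes with a mean of at least 1000, 6 had a larger fold change in either direction, all named after their values were seen. On the same side as tobi these were Mal-A7, a maltase gene, at 3.47 (SE 0.45) and Fst, which cold induces, at 3.17 (SE 0.31) in the deposited table. On the other side 4 were larger in size, Fad2 at -6.26 (SE 0.75), CG13947 at -3.17 (SE 0.35), Alp2 at -3.14 (SE 0.39) and the yolk protein gene Yp1 at -3.05 (SE 0.36). The SE of tobi was large for its abundance, at the 94.3 percentile of these genes, and its fold change exceeded that of AGBE by 1.26, with an interval of 0.22 to 2.30.

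In size, 6 of the 9 genes were called with a log2 fold change of at least 1, which is 2-fold, in the authors' deposited table. Of all tested genes 12.4% met both conditions on the positive side. UGP was the called gene below that size. Tested against an absolute log2 change of at most 0.5 in place of no change, AGBE, GlyP, Treh, Tret1-2 and tobi still passed and UGP did not. GlyS lay at the threshold, with a Benjamini-Hochberg adjusted p of 0.0447 over the 11399 tested genes and of 0.0517 over the 13194 genes with a p-value. Over all alternatives the adjusted p of GlyS ran from 2.93e-07 to 0.0517.

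Position in the genome did not group these genes, except for the Tret1 pair. In the release 6 annotation UGP (FBgn0035978) lies on 3L from 9350867 to 9358935 and GlyS (FBgn0266064, spelled Glys there) on 3R from 15141843 to 15147531. AGBE (FBgn0053138) lies on 2R from 13171401 to 13174796, and GlyP (FBgn0004507, spelled Glyp there) on 2L from 2130813 to 2137296. Tps1 (FBgn0027560) lies on 2L from 4388327 to 4392778, Treh (FBgn0003748) on 2R from 21074018 to 21088945, and tobi (FBgn0261575) on 3R from 25344761 to 25346921. All 9 are annotated as protein-coding, with 7 transcripts for Treh, 4 each for UGP and GlyS, 2 each for GlyP and Tret1-1 and 1 for each of the others, and the deposited table has 1 value per gene, so isoforms cannot be told apart.

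The nearest tested genes on either side, leaving out those that overlap the member, gave 18 pairs of member and neighbour. By the authors' deposited table the neighbour had a positive call in 9 pairs, a negative one in 2 and none in 7. The Tret1 genes are each other's neighbour in 2 of these pairs. Of all tested genes, 27.0% had positive and 22.0% negative calls. Neither neighbour of tobi was called, with CG11902 at 0.20 (SE 0.16) and Fur1 at 0.28 (SE 0.13) in the deposited table. The gene on the lower side of GlyP, CG4259, was called on the negative side at -1.18 (SE 0.15) in that table, as was CG10527 beside Treh at -0.59 (SE 0.17). Both neighbours of AGBE were called on the positive side in the deposited table, CG33137 at 1.52 (SE 0.55) and the antisense gene asRNA:CR45142 at 2.10 (SE 0.62), at mean normalised counts of 2.93 and 2.50.

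**Figure D3:**
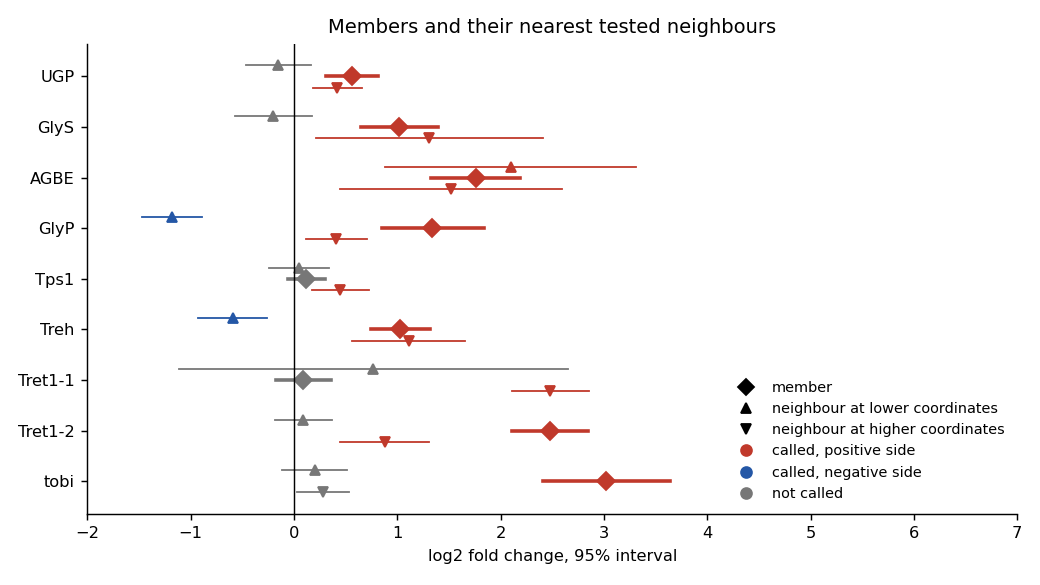
For each of the 9 genes, the diamond gives its log2 fold change in the authors' deposited comparison and the triangles those of the nearest tested genes at lower and higher coordinates, each with a 95% interval. The neighbours of tobi lie near 0.2 and 0.28 while tobi is at 3.02, and those of GlyP lie on opposite sides of 0.

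Some members overlap genes on the other strand, and the sources used here do not say whether reads were counted by strand. Exons of PGRP-LF cover 20.0% of the exonic bases of UGP and had a mean normalised count of 45.0 in the authors' deposited table, against 3211 for UGP. Exons of Rbpn-5 cover 12.8% of those of Treh, at 78.7 against 2024 in the deposited table. For tobi the overlap with rha was 3.71% of exonic bases, and for UGP with CG32040 1.39%. Both rha at 2.69 (SE 0.55) and CG32040 at 2.02 (SE 0.25) were called on the positive side. Their mean normalised counts were 3.77 and 42.2. PGRP-LF at 0.47 (SE 0.24) and Rbpn-5 at -0.14 (SE 0.12) were not called. AGBE, GlyS and GlyP overlap no other annotated gene.

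Other genes of sugar handling were taken from 5 lists, which the 9 genes are not part of. Of 54 such genes with a row, 52 had an adjusted p-value. The authors' deposited table gave 25 positive and 5 negative calls among these, beside 27.0% and 22.0% of all tested genes. Their median log2 fold change was 0.35.

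On the list of glycogen genes, 12 genes were tested, and the authors' deposited table gave 7 positive and 0 negative calls. Over all tested genes the shares were 27.0% and 22.0%. The list had a median log2 fold change of 0.33. Gyg, which encodes glycogenin, the protein primer of new glycogen particles, stood at 1.27 (SE 0.14, adjusted p = 4.76e-17), near GlyS in size. CG9485 was at 1.11 (SE 0.26) in the deposited table. The kinase gene sgg, the fly glycogen synthase kinase that acts in Wnt signalling as well, was at 0.83 (SE 0.13) in that table, and CG8475 at 0.49 (SE 0.11). Of the glycogen-targeting subunits of protein phosphatase 1, Gbs-76A was called at 0.52 (SE 0.17) and Gbs-70E was not, at -0.24 (SE 0.15), in the deposited table. GCS2alpha, a glucosidase subunit of the endoplasmic reticulum that trims glycoproteins, was at 0.35 (SE 0.06) in the deposited table.

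The phosphoglucomutase gene Pgm1, whose enzyme links glucose-6-phosphate with the glucose-1-phosphate used by UGP, was not called. Its log2 fold change in the authors' deposited table was -0.00 (SE 0.15, adjusted p = 0.984), which is 0.997-fold, at a mean normalised count of 5772. PhKgamma, the catalytic subunit of phosphorylase kinase, which activates glycogen phosphorylase, stood at -0.04 (SE 0.11, adjusted p = 0.802) in that table. The 95% interval of PhKgamma ran from -0.26 to 0.18 on the log2 scale.

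On the list of trehalose and sugar transport genes, 7 genes were tested. The authors' deposited table gave 4 positive calls and 1 negative call, beside 27.0% and 22.0% of all tested genes. CG5177 stood at 1.08 (SE 0.20) and CG5171 at 0.57 (SE 0.14) there. The sugar transporter genes sut2 at 1.69 (SE 0.45) and sut3 at 2.05 (SE 0.73) were called at low mean normalised counts of 8.54 and 1.73 in the deposited table. Their relative sut1 was the negative one at -0.52 (SE 0.18), and the glucose transporter gene Glut1, at 0.11 (SE 0.20), was not called in that table.

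Genes that carry glucose into and out of its phosphates showed 6 positive calls and 0 negative ones among 10 tested in the authors' deposited table. Over all tested genes, 27.0% had positive and 22.0% negative calls. Both hexokinase genes on the list were called, Hex-C at 0.91 (SE 0.13) and Hex-A at 0.47 (SE 0.14) in the deposited table. The isomerase gene Pgi stood at 0.46 (SE 0.11) in that table. Gfat1 and Gfat2, which divert fructose-6-phosphate to amino sugars, were at 1.35 (SE 0.20) and 0.46 (SE 0.10) in the deposited table. Pepck2, of gluconeogenesis, was called at 1.19 (SE 0.30), while fbp, the fructose bisphosphatase, at -0.09 (SE 0.15) was not. The pentose phosphate genes Zw at 0.11 (SE 0.15) and Pgd at 0.04 (SE 0.09) were not called in that table either.

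The 15 regulators of sugar metabolism had 6 positive calls and 1 negative call in the authors' deposited table, and 8 were not called. Of all tested genes, 27.0% had positive and 22.0% negative calls. Mondo, the sugar-sensing transcription factor, was at 1.04 (SE 0.13, adjusted p = 7.25e-14), and bigmax, the gene of its dimer partner, at -0.29 (SE 0.14, adjusted p = 0.0740), was not called. The gene sug, a transcription factor that dietary sugar induces, stood at -0.10 (SE 0.16) in the deposited table. AkhR, the receptor of adipokinetic hormone, was not called, at -0.03 (SE 0.15, adjusted p = 0.872) in that table, with a 95% interval of -0.32 to 0.25. On the positive side the deposited table had the transcription factor foxo at 0.58 (SE 0.09), the activin receptor babo at 0.80 (SE 0.14), the deacetylase HDAC4 at 0.67 (SE 0.10), the insulin receptor InR at 0.51 (SE 0.12) and the kinase Sik3 at 0.49 (SE 0.16). The single negative call was Smox, a Smad protein of the activin pathway, at -0.34 (SE 0.11).

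Genes of polyol, glycerol and proline metabolism had 2 positive and 3 negative calls among 8 tested in the authors' deposited table. Over all tested genes, 27.0% had positive and 22.0% negative calls. The median log2 fold change of the list was 0.03, against 0.07 for all tested genes, so as a list it stood near them. The sorbitol dehydrogenase genes Sodh-1 at 2.21 (SE 0.33) and Sodh-2 at 1.54 (SE 0.34) were on the positive side. Those of the glycerophosphate shuttle, Gpdh1 at -0.43 (SE 0.10) and Gpo1 at -0.92 (SE 0.16), and the proline synthesis gene P5cr at -0.42 (SE 0.13), were on the negative side of the deposited table.

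**Figure D4:**
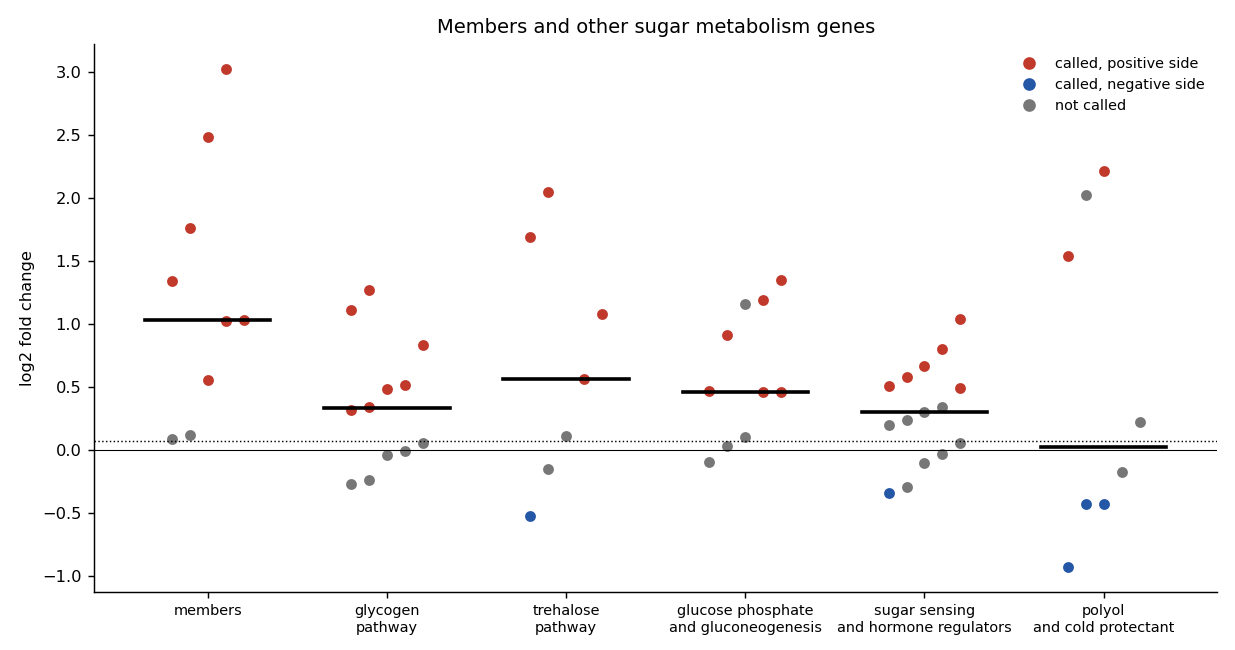
Each point is a gene with an adjusted p-value, placed by its log2 fold change in the authors' deposited comparison, for the 9 genes and the 5 lists of other sugar metabolism genes. Bars mark list medians, 1.03 for the 9 genes and 0.33, 0.57, 0.47, 0.30 and 0.03 for the lists from left to right, and the dotted line marks the median of all tested genes, 0.07.

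Markers of cell types moved in the same comparison. The tissue carried the transcripts of fat body, with mean normalised counts in the authors' deposited table of 53598 for the yolk protein gene Yp2, 18112 for the lipoprotein gene apolpp and 19175 for the fatty acid synthase gene FASN1. Single markers of other cell types reached such levels too, with the oenocyte marker Cyp4g1 at 123338 and the gut marker alphaTry at 18683. None of the 11 fat body markers was at 0, though the larval storage protein gene Lsp2 was at 8.37. These 11 had 2 positive and 6 negative calls in the deposited table, beside 27.0% and 22.0% of all tested genes. Their median log2 fold change was -0.78. The negative calls included the yolk protein genes Yp1 at -3.05, Yp2 at -2.94 and Yp3 at -2.10. The other negative calls were apolpp at -0.88, Nplp2 at -0.78 and Apoltp at -0.47. On the positive side were Col4a1 at 0.96 and bmm at 0.86. FASN1 at 0.09 (SE 0.24) and AkhR were not called.

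Markers of several other cell types were on the positive side, as were 7 of the 9 genes. Over all tested genes, positive calls made up 27.0% and negative calls 22.0%. Positive calls in the authors' deposited table were 7 of 10 muscle markers, 5 of 8 neuron markers, 3 of 4 glia markers and 3 of 5 hemocyte markers, with 0 negative calls in these lists. Their medians were 1.05, 1.44, 1.10 and 0.79. Mean normalised counts of muscle markers ran from 58.7 to 2063 and of neuron markers from 0.986 to 315 in the deposited table. The means summed to 5649 for the muscle list and 479 for the neuron list, against 49131 for the 9 genes. Of the latter sum, Tps1 gave 22290 and Tret1-1 4494, and neither was called. Sums over short lists of chosen genes do not measure amounts of tissue. For the gut list the sum was 43990 and for the oenocyte list 156379. No marker of these lists was at 0. The ovary and germline markers had 4 negative and 0 positive calls among 7 tested, and the oenocyte markers 3 negative and 1 positive of 5. The gut list had 1 positive and 2 negative calls of 6, and the Malpighian tubule list 2 positive and 0 negative of 4. The part of these cell types in the fold changes of the 9 genes was not tested.

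**Figure D5:**
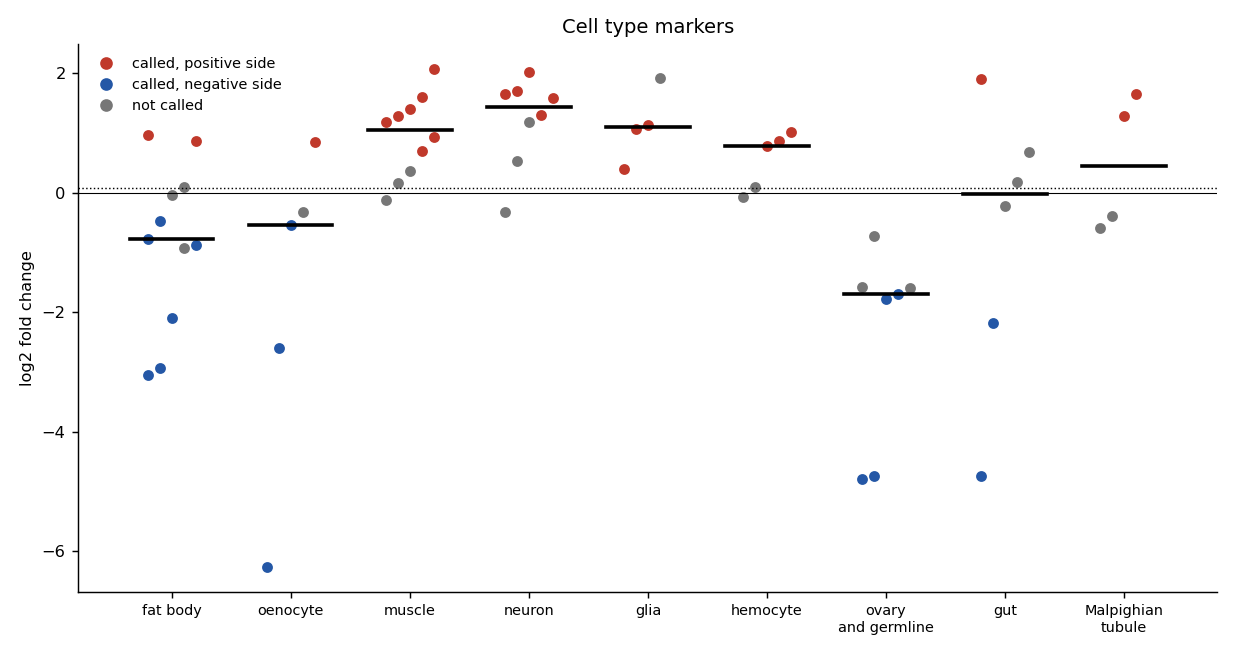
Each point is a cell type marker with an adjusted p-value, placed by its log2 fold change in the authors' deposited comparison, with bars at list medians and a dotted line at the median of all tested genes. Muscle, neuron, glia and hemocyte medians lie at 1.05, 1.44, 1.10 and 0.79, and the fat body, oenocyte and ovary medians at -0.78, -0.55 and -1.70.

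Transcript length went with the fold change across genes as well. With tested genes at or above the median mean split into 10 bins of transcript length, the authors' deposited table gave a median log2 fold change of -0.37 for the shortest transcripts and of 0.34 for the longest. The 9 genes fall in the middle bins, where the medians were between -0.15 and 0.10. Taken relative to the median of their own bin, the 7 called genes kept their calls, tobi at 3.09, Tret1-2 at 2.64, AGBE at 1.80, GlyP at 1.24, Treh at 0.93, GlyS at 0.92 and UGP at 0.52. Tps1 was then at 0.09 and Tret1-1 at -0.01, and neither was called.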

How the data were processed

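The tools listed are DESeq2, Bowtie2, Picard, SAMtools, cutadapt, Trim Galore and FastQC, with build dm6, per the submitters' processing notes. The sources used here do not give which of these served the RNA libraries, their versions, how reads were counted or by which annotation. Per the file headers, the authors deposited for each gene a mean normalised count (a signal over libraries), a log2 fold change with its SE, a test statistic (a score) and p-values before and after adjustment. On the values, the statistic is the fold change over its SE, and the adjusted p is Benjamini-Hochberg over 11399 genes. A further 1795 genes have a p-value and no adjusted one, and 40 have neither. The deposited means sum to 4719004, but counts per library are unknown, so precision was read from the SEs.

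Everything else was computed in Python 3.11.15 with scipy 1.17.1. The recomputed tests were tested on simulated data. Symbols were matched to the Ensembl release 115 annotation of the release 6 assembly, 12521 exactly and 19 after ignoring case. Levels per kb use the longest transcript. The design foresaw counts per library, which the table does not hold, so the authors' adjusted p was used. The 9 genes, the 5 pathway lists and the 9 marker lists were chosen with earlier results of these data known. From each list the rule named up to 4 genes with the smallest adjusted p. Genes printed beyond it were picked after their values were seen. A search for paralogues by protein alignment was not run, and no sequence was used here. Alternatives were another threshold, another adjustment, a minimum mean, a null of at most 0.5 on the log2 scale, and centring overall or by length.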

Additional observations from a re-analysis of the deposited data

How the results depend on the processing

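Under 8 alternatives the 9 genes had between 5 and 7 positive calls and 0 negative ones. The median of the 9 genes was 1.05 after overall centring and 0.93 after centring by transcript length, and a mean weighted by the inverse squared SE was 0.75, which gives Tps1 the most weight. Against a null of at most 0.5 on the log2 scale, adjusted over all 13194 genes with a p-value, the other sugar genes had 7 positive and 0 negative calls, in place of 25 and 5, and UGP at 0.56 and GlyS at 1.02 lost their calls. Adjusted over the 11399 tested genes, an alternative chosen after seeing the data, the same null also gave 7 and 0, UGP lost its call and GlyS kept it. Over all genes that null gave 877 positive and 537 negative calls among 13194, and 903 and 548 among 11399, in place of 3078 and 2512 among 11399. Tret1-1, not called in either case, changed sign to -0.01 after centring by length. With a mean of at least 100, Tret1-2 was not tested. Of 71 values of single genes under alternatives, 67 kept direction and call. No paired analysis was possible because the table holds no value per library, and for the same reason leaving out replicates was not run. Changes in Tps1 and Tret1-1 smaller than their intervals allow were not detectable at this precision.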
